A study of Mus musculus with 6 samples.

Results

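NADPH oxidase subunits were examined in mammary tissue taken from WT and Rac1-/- mice on involution day 2. The members were Cybb, Cyba, Ncf1, Ncf4, Nox1 and Nox4, and every probe set whose annotation names exactly 1 of these 6 genes was taken. This gave 10 of the 45101 probe sets on the array, which stand for 5 of the 18194 genes with a value. Cybb and Ncf1 have 3 probe sets each, Nox4 has 2, and Cyba and Ncf4 have 1 each. No probe set in the annotation used here names Nox1, so Nox1 was not analysed.

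Gene expression was measured in 3 WT and 3 Rac1-/- mice, with 1 Affymetrix mouse array for each animal and RNA from the fourth inguinal gland. Mice of both groups carried floxed Rac1 alleles (Rac1fx/fx) and a Rosa YFP reporter, and the groups were age matched. The Rac1-/- mice also carried 1 copy of the WAPiCre transgene, in which the promoter of the milk protein gene Wap drives Cre in luminal epithelial cells, and the WT controls had no Cre. On these arrays, effects of Cre and of the Rac1 deletion therefore cannot be told apart. The study also made WAPiCre mice with WT Rac1, which are not among the arrays. It reported that their ducts and alveoli formed normally in a second pregnancy. In early involution it found their ducts moderately bloated, as in WT mice without Cre, and fully recovered later in involution. Rac1 stayed intact in all cells that do not switch on Wap, phagocytes and stroma included. The study used these glands to ask what epithelial Rac1 does in the clearance of milk and dead cells.

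NADPH oxidases pass electrons from NADPH across a membrane to oxygen and so produce superoxide or hydrogen peroxide. In the oxidase of phagocytes, the catalytic subunit (Cybb, also called Nox2) and its partner p22phox (Cyba) sit in the membrane. On activation, cytosolic subunits, p47phox (Ncf1) and p40phox (Ncf4) among them, join them together with Rac bound to GTP, and the complex gives the oxidative burst that accompanies phagocytosis. Nox1 is a relative that also works with Rac. Nox4 needs p22phox but neither Rac nor the cytosolic subunits, and it is best known from mesenchymal, vascular and kidney cells.

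The deposited intensities were quantile normalized between arrays and taken to log2, and all levels below are on this log2 scale unless stated otherwise. Differences, also called log2 fold changes, are Rac1-/- minus WT. Nas484 and Nas497, 1 mouse of each group, stood apart on the first principal component (43.6% of the variance). Actin has control probe sets near its 3' and 5' ends, and the log2 intensity at the 3' end minus that at the 5' end is used as a check of RNA. A negative value means a brighter 5' end, and whether it reflects RNA quality here was not tested. This actin difference was -0.17 to 0.048 on the WT arrays and -1.24 to -0.30 on the Rac1-/- arrays, so it separated the groups. A fit with the actin difference as a covariate therefore cannot cleanly tell it from genotype. The same difference for Gapdh was -0.037 to 0.16 on the WT arrays and -0.058 to 0.18 on the Rac1-/- arrays, which overlapped. Luminal epithelial markers were bright in every gland, with Csn2, the gene of beta-casein, between 14.63 and 15.96. Rac1 itself had 9.31, 9.50 and 8.97 in WT mice and 9.51, 9.01 and 9.84 in Rac1-/- mice on the probe set with the highest mean, and 8.74, 9.001 and 9.89 against 8.77, 8.34 and 8.14 on another. Its groups overlapped on both, and it is not known whether either targets the deleted exons, so the probe sets do not check the labels.

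In none of the 5 genes did the oxidase transcripts differ between WT and Rac1-/- glands beyond the spread between mice. Of the 5, 0 passed limma's test at an adjusted p under 0.05, where 0% of all genes did, and 0 had an unadjusted p under 0.05, where 4.05% of all genes did. In 0 of the 5 genes and 0 of the 10 probe sets were the groups free of overlap, against 9.62% of all genes and 9.46% of all probe sets. The estimates of the genes ran from -0.17 for Cyba to 0.65 for Ncf1, with a median of 0.23 and 4 of 5 above 0, and the median of all 18194 genes was 0.060. The smallest adjusted p among the genes was 0.946. With 3 mice against 3, an exact two-sided permutation test cannot give a p below 0.1, and the smallest for any member was 0.3.

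**Figure D1:**
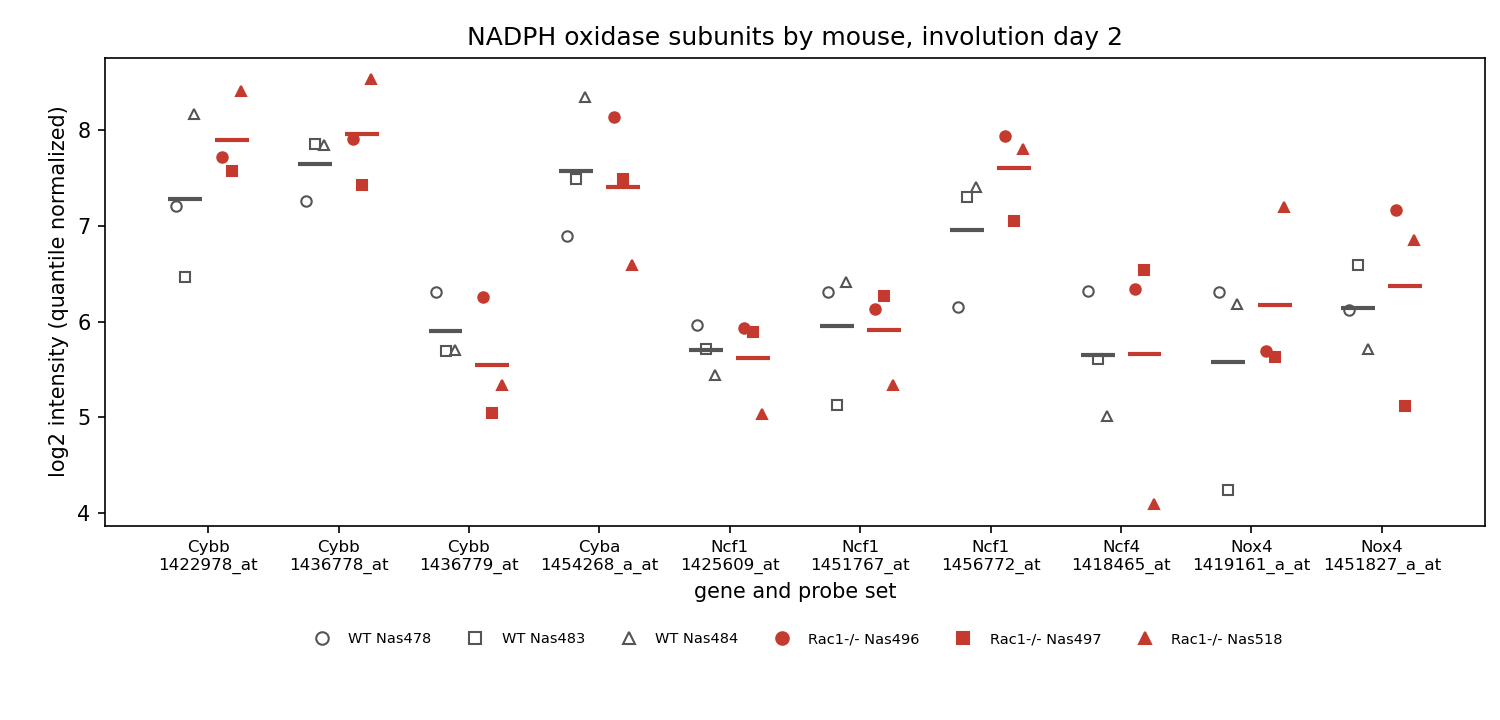
Quantile-normalized log2 intensity of the 10 probe sets of Cybb, Cyba, Ncf1, Ncf4 and Nox4 at involution day 2, with 1 point for each of 3 WT mice (grey, open) and 3 Rac1-/- mice (red, filled) and a bar for the mean of each group. The WT and Rac1-/- points overlap on every one of the 10 probe sets.

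Cybb, on its probe set with the highest mean (1436778_at), read 7.26 in Nas478, 7.85 in Nas483 and 7.84 in Nas484, all WT, and 7.91 in Nas496, 7.43 in Nas497 and 8.54 in Nas518, all Rac1-/-. The Rac1-/- mouse Nas518 was the highest and Nas497 lay below 2 of the WT mice. The mean was 7.65 ± 0.34 (SD, n = 3) across WT and 7.96 ± 0.56 (SD, n = 3) across Rac1-/- glands, a log2 difference of 0.31 (SE 0.48, adjusted p = 0.963 by limma). The 95% interval ran from -0.79 to 1.41, or from 0.578 to 2.65 times the WT level, and changes of either sign within these bounds are not excluded. The estimate was 0.018 without Nas518 and 0.57 without Nas497, and it turned to -0.29 when every array was scaled to 1 median. In whole glands, a different number of cells of a type and a different amount of RNA in each cell cannot be told apart.

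The other probe sets of Cybb did not follow this one closely. On 1422978_at the mice gave 7.20, 6.46 and 8.18 in WT and 7.72, 7.57 and 8.41 in Rac1-/- mice in the same order. Here the WT mouse Nas483 was the lowest and the WT mouse Nas484 the second highest. The log2 difference was 0.62 (SE 0.58), from 0.21 without Nas483 to 1.07 without Nas484. On 1436779_at, whose annotation gives the same target sequence as 1436778_at, the mice gave 6.31, 5.69 and 5.70 in WT and 6.26, 5.05 and 5.34 in Rac1-/- mice, and the log2 difference was -0.35 (SE 0.51), from -0.71 without Nas496 to -0.10 without Nas497. The log2 difference between these 2 probe sets of 1 target was not constant across mice, from 0.96 in Nas478 to 3.20 in Nas518. The deposited intensity of 1436779_at lay above the array's median on 2 of 6 arrays, whereas that of the other 2 Cybb probe sets did on 6 of 6.

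Cyba, which encodes the membrane partner of both Cybb and Nox4, had 6.90, 7.49 and 8.35 in WT and 8.14, 7.49 and 6.59 in Rac1-/- mice. The highest value was in the WT mouse Nas484 and the lowest in the Rac1-/- mouse Nas518. Group means were 7.58 ± 0.73 (SD, n = 3) for WT against 7.41 ± 0.78 (SD, n = 3) for Rac1-/-, and the log2 difference was -0.17 (SE 0.59, adjusted p = 0.988 by limma), with a 95% interval from -1.51 to 1.17. The sign of this estimate rested on single mice, at 0.21 without Nas484 and 0.24 without Nas518. Nas518 thus held the highest level of Cybb among the 6 mice on 2 probe sets and the lowest level of Cyba.

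Ncf1, the gene of the cytosolic organizer p47phox, had the highest estimate of the 5 genes. On its probe set with the highest mean (1456772_at) the mice gave 6.15, 7.30 and 7.41 in WT and 7.95, 7.06 and 7.81 in Rac1-/- mice. Nas496 and Nas518 lay above all WT mice, but Nas497 lay below Nas483 and Nas484. The means were 6.95 ± 0.70 (SD, n = 3) and 7.60 ± 0.48 (SD, n = 3), a log2 difference of 0.65 (SE 0.53, adjusted p = 0.946 by limma) with a 95% interval from -0.55 to 1.85, or 0.681 to 3.61 times the WT level. Without the WT mouse Nas478, the lowest of the 6, it was 0.25, and without Nas497 it was 0.92. The other probe sets of Ncf1, which have 1 target sequence in common, gave -0.085 (SE 0.48) on 1425609_at and -0.040 (SE 0.55) on 1451767_at. Their levels ran from 5.04 to 5.96 and from 5.13 to 6.42 over the 6 mice, and on both Nas518 was the lowest Rac1-/- mouse. These were dimmer signals, above the array's median on 1 and 4 of 6 arrays against 6 of 6 for 1456772_at.

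Ncf4, the gene of p40phox, had 6.32, 5.61 and 5.01 in WT and 6.34, 6.54 and 4.09 in Rac1-/- mice. The spread among Rac1-/- mice was the widest of the 5 genes, since Nas497 held the highest and Nas518 the lowest value of all 6 mice. WT averaged 5.65 ± 0.65 (SD, n = 3) against 5.66 ± 1.36 (SD, n = 3) in Rac1-/- glands, and the log2 difference was 0.0092 (SE 0.72, adjusted p = 0.998 by limma). The 95% interval, from -1.64 to 1.66, does not show that the level was the same. The estimate moved to 0.79 without Nas518, -0.43 without Nas497 and -0.75 without the arrays of both Nas484 and Nas497.

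Nox4, the Rac-independent relative, had 6.12, 6.59 and 5.72 in WT and 7.16, 5.12 and 6.85 in Rac1-/- mice on its probe set with the highest mean (1451827_a_at). Nas496 and Nas518 lay above all WT mice and Nas497 below all of them. The means were 6.14 ± 0.44 (SD, n = 3) and 6.38 ± 1.10 (SD, n = 3), a log2 difference of 0.23 (SE 0.62, adjusted p = 0.980 by limma) with a 95% interval from -1.19 to 1.65. It was 0.86 without Nas497, -0.16 without Nas496, 0.022 without Nas484 and -0.0032 without Nas518. With the actin difference, which itself separated the groups, as a covariate the estimate was 1.56 (unadjusted p = 0.0294 from limma). That was the 1 member value under any alternative with an unadjusted p under 0.05. On the other probe set (1419161_a_at) the mice gave 6.31, 4.24 and 6.18 in WT and 5.69, 5.63 and 7.20 in Rac1-/- mice, with a log2 difference of 0.59 (SE 0.73) that was -0.078 without the WT mouse Nas483 and 0.079 without Nas518.

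**Figure D2:**
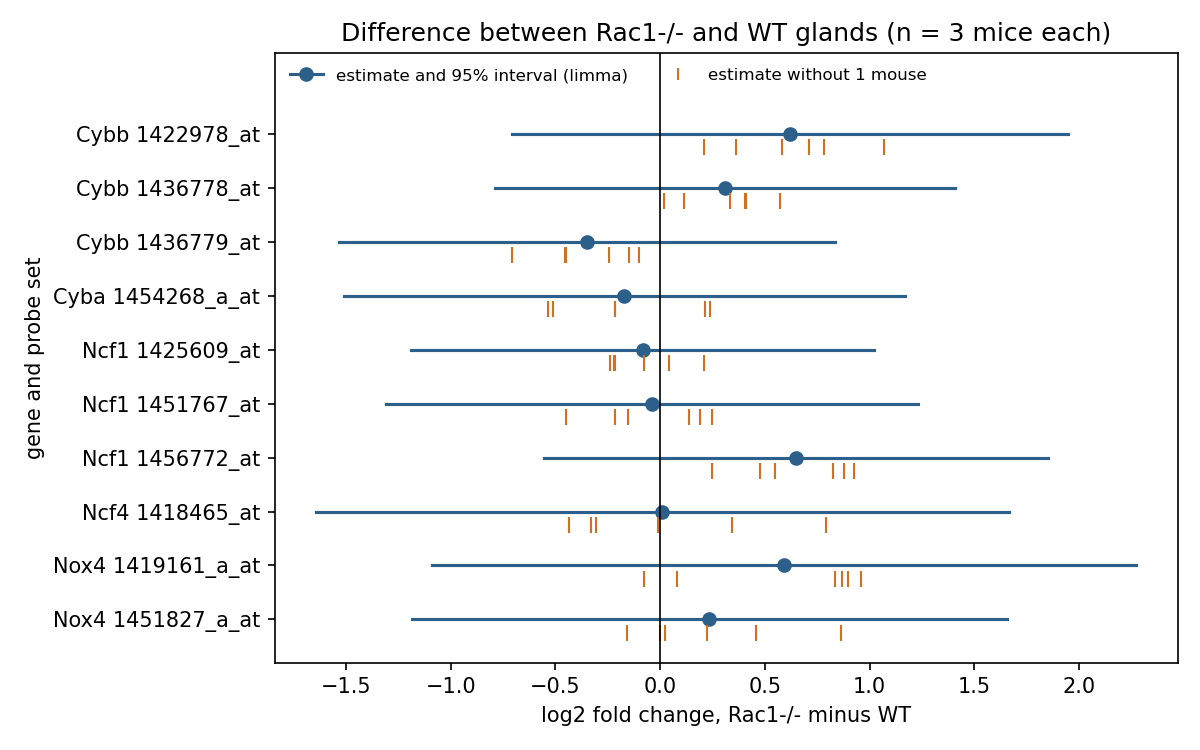
Rac1-/- minus WT log2 difference for each of the 10 probe sets, with n = 3 mice for each group. Circles are limma estimates, lines their 95% intervals and orange ticks the estimates without 1 mouse, and every interval includes 0, with estimates from -0.35 to 0.65.

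The 5 genes did not share 1 profile over the 6 mice. As a measure of likeness, each gene's 6 log2 values were centred on their mean, and the root mean square difference from every other gene was taken, over 18111 genes with no value at the floor. Ncf1 was the member nearest to Cybb, at 0.35, with rank 564 among these genes, while Nox4 had rank 3791, Cyba 9717 and Ncf4 15759. From the side of Ncf1, Cybb had rank 119. Ncf4 lay at least 0.92 from every other member, and its nearest was Cyba at rank 5095. The genes with the smallest difference were Pabpc1l, Twistnb and Gabre for Cybb (0.088 to 0.11), Evl, Usp21 and Usf2 for Cyba (0.13 to 0.15), and Dach2, Serpinh1 and 4833447I15Rik for Ncf1 (0.13 to 0.17). They were Hhipl1, Kcng4 and Rtel1 for Ncf4 (0.11 to 0.23), and Cyp2d22, Pla1a and Pdgfra for Nox4 (0.096 to 0.14). These are the nearest of 18111 genes over 6 arrays and are given as a description only.

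Markers of cells known to express these subunits also varied between the mice. The sum of the linear normalized intensities of 16 macrophage markers was 2985 to 5537 in WT and 4319 to 9692 in Rac1-/- glands, with 13 of 16 estimates above 0, a median of 0.66 and 0 of 16 at an unadjusted p under 0.05 in limma, or at an adjusted p under 0.05. By mouse, the macrophage sums ran 5537, 4676 and 2985 for WT and 9692, 4319 and 8644 for Rac1-/-. For 8 neutrophil markers the sums were 392 to 573 in WT and 515 to 746 in Rac1-/- glands, with 6 above 0, and for 4 B cell markers they were 270 to 370 and 207 to 535, with 2 above 0. For 7 fibroblast markers, among them Pdgfra, the sums were 11640 to 17036 and 7465 to 19725, with 5 above 0, and for 6 endothelial markers 612 to 1919 and 695 to 1026, with 3 above 0. Nas496 and Nas518 had the highest sums of macrophage, B cell and fibroblast markers, and the highest Cybb, Ncf1 and Nox4 on the brightest probe set of each. Cyba (6.59) and Ncf4 (4.09) instead had their lowest values of the 6 mice in Nas518, though not in Nas496 (8.14 and 6.34). Bright genes weigh most in the marker sums, and single markers differed. In Nas518, Ms4a1 (8.41) and Col3a1 (13.65) were high. Cd79a (6.42) and Cd79b (4.88) lay below the WT mouse Nas478 (6.80 and 6.11), and Col1a1 (9.36) below the WT mouse Nas484 (12.38). The neutrophil sum of Nas518 (548) was below that of Nas484 (573). In these 5 lists 0 markers had a value at the floor of the scale. The part of any of these cells in the levels of the oxidase genes was not tested.

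**Figure D3:**
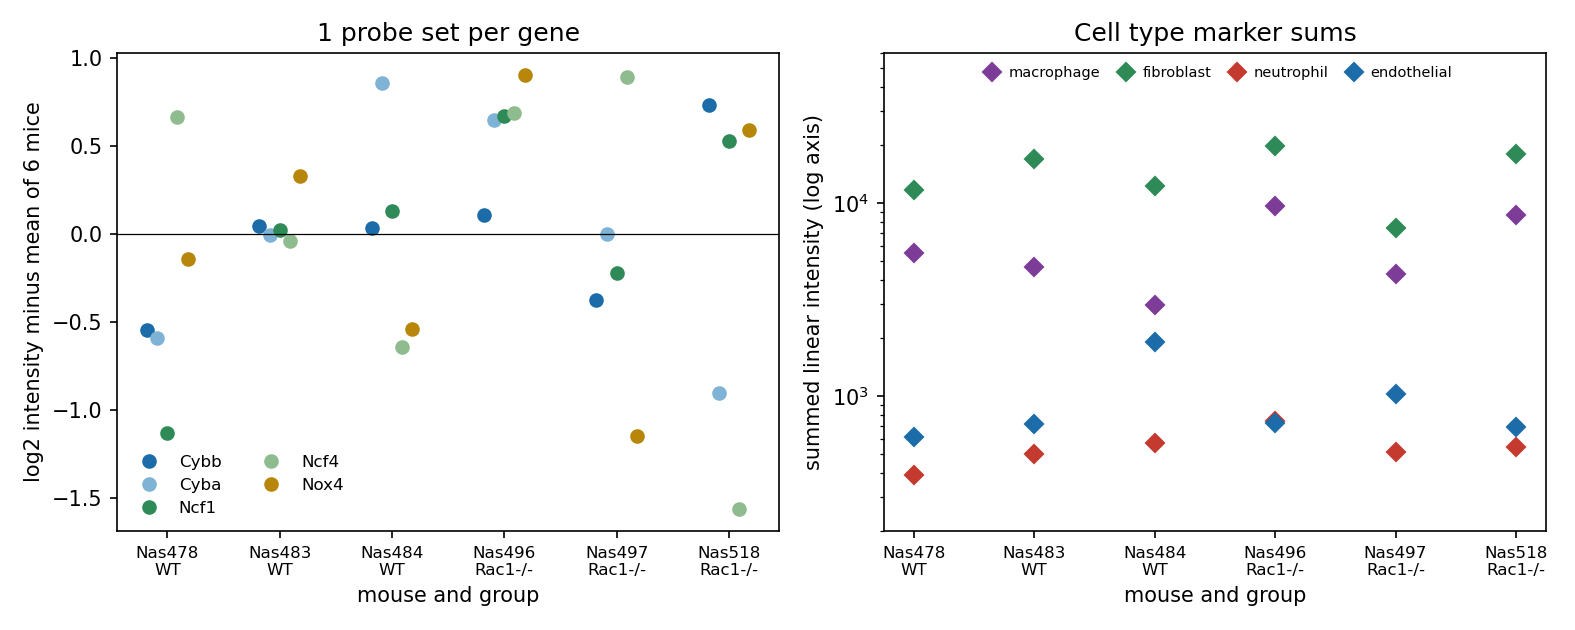
Left, log2 intensity minus the mean of the 6 mice for Cybb, Cyba, Ncf1, Ncf4 and Nox4, on the probe set of each with the highest mean, by mouse and group. Right, summed linear normalized intensity of macrophage, fibroblast, neutrophil and endothelial markers on a log axis. Nas518 is the highest mouse for Cybb and the lowest for Cyba and Ncf4, and the macrophage sums of Nas496 and Nas518, 9692 and 8644, are above those of the other mice.

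Genes that work with the oxidase did not pass the test either. Of 16 listed partners and relatives, 12 had a value, with 8 estimates above 0, 4 below, a median of 0.13 (0.021 without Nas497 and 0.22 without Nas518) and 0 at an unadjusted p under 0.05 in limma, or at an adjusted p under 0.05. Rac2, the Rac of blood cells that serves the oxidase of neutrophils, had 6.27 ± 0.44 (SD, n = 3) across WT and 6.60 ± 0.050 (SD, n = 3) across Rac1-/- glands, a log2 difference of 0.32 (SE 0.44), which was 0.093 without Nas483, and another probe set of Rac2 gave -0.10. Rac1 on its brightest probe set had 0.19 (SE 0.45), and -0.80 on the other bright one. The log2 difference was 0.014 (SE 0.62) for Hvcn1, the proton channel that balances the charge moved by the oxidase. It was 0.12 (SE 0.51) for Noxo1, the organizer of Nox1, and -0.16 (SE 0.49) for Duox1, a dual oxidase of epithelia. These signs turned when single mice were left out. The groups did not overlap for 2 of the 12, both below WT in every Rac1-/- mouse, where 9.62% of all genes had groups without overlap. Duoxa1, the maturation factor of Duox1, had 7.33, 7.45 and 6.97 in WT and 6.28, 6.81 and 6.16 in Rac1-/- mice, a log2 difference of -0.83 (SE 0.44, adjusted p = 0.946 by limma). Poldip2, a binding partner of p22phox that acts on Nox4, had 7.88, 7.62 and 7.19 in WT and 6.99, 6.86 and 6.60 in Rac1-/- mice, a log2 difference of -0.75 (SE 0.43), and its other probe set, at -0.74, did not overlap either. Neither passed, and their exact permutation p was 0.1, the smallest that 3 against 3 can give. No probe set names Noxa1 or Duox2 in the annotation used here, and they were not analysed.

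Of 20 genes listed for the activation of the oxidase, 18 had a value, with 10 above 0, 8 below and a median of 0.047. In limma 0 of them had an unadjusted p under 0.05, and 0 an adjusted p under 0.05. The smallest p were those of Akt1, a kinase that phosphorylates p47phox, with a log2 difference of -0.84 (SE 0.51) and overlapping groups, and of the Rac effector kinase Pak2, with -0.68 (SE 0.43). Pak2 did not overlap between groups on this probe set, but its other probe sets gave 0.24 and -0.35 with overlap. It was the 1 gene of the 18 without overlap, where 9.62% of all genes had groups without overlap. Akt1 was -1.27 without Nas496 (unadjusted p = 0.0363 from limma) and -0.42 with the interquartile range of the arrays as a covariate. A dimmer probe set of Akt1 gave -1.18 without overlap, and the remaining ones -0.36 and -0.67 with overlap. Dock2, which activates Rac in blood cells, had 0.10 (SE 0.49) on its brightest probe set. A dimmer one had 5.42, 2.03 and 5.20 in WT and 6.16, 6.43 and 6.90 in Rac1-/- mice, without overlap. Its log2 difference was 2.28 (SE 0.89, unadjusted p = 0.0338 and adjusted p = 0.949 from limma across all probe sets), and the other probe set gave 0.18 with overlap.

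Genes that remove superoxide and peroxide were listed next. Of 23 listed, 19 had a value, with 4 estimates above 0, 15 below and a median of -0.37, where 8391 of all 18194 genes were below 0 and their median was 0.060. At an unadjusted p under 0.05, 0 were higher and 1 was lower, where 4.05% of all genes had such a p, and 0 passed at an adjusted p under 0.05. The 1 was Prdx3, the mitochondrial peroxiredoxin, which had 9.50, 8.58 and 8.97 in WT and 7.85, 7.50 and 7.71 in Rac1-/- mice. The groups did not overlap, with a log2 difference of -1.33 (SE 0.45, adjusted p = 0.946 by limma) that ran from -1.55 to -1.09 when single mice were left out. Nqo1, a quinone reductase induced by oxidative stress, had 7.37, 6.89 and 6.61 against 6.52, 6.22 and 5.34, a log2 difference of -0.93 (SE 0.50), again without overlap. It was -0.59 without Nas518 and -0.58 with the interquartile range of the arrays as a covariate. The groups did not overlap for these 2 of the 19 genes, where 9.62% of all genes had groups without overlap. Sod1, the cytosolic superoxide dismutase, had 0.035 (SE 0.47) and -0.15 (SE 0.66) on its 2 brightest probe sets, and its dimmest, near the floor of the scale, gave -2.62 (SE 0.87, unadjusted p = 0.0169 from limma) with overlapping groups. The median of the list was -0.025 with the actin difference, which itself separated the groups, as a covariate. It was -0.0071 with the interquartile range of the arrays as a covariate. The sum of 8 luminal epithelial markers was 85719 to 112994 in WT and 36087 to 43850 in Rac1-/- glands, carried by Csn2 and Wap. Among the other markers, Krt18 was higher in every Rac1-/- mouse than in any WT mouse, and Elf5 was lower. Krt8, Cdh1, Krt19 and Epcam, with log2 differences of 0.87, 0.27, -0.19 and -0.14, had overlapping groups. The study's own lists of genes lower in Rac1-/- glands hold Csn2, Wap and Elf5. On which arrays those genes were chosen is not stated, so their direction is not given as independent evidence. The part of lower secretory expression in the values of the removal genes was not tested.

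Other enzymes that make or use oxidants had estimates on both sides of 0. Of 12 listed, 11 had a value, with 6 above 0, 5 below and a median of 0.11 (0.057 without Nas496 and 0.24 without Nas483). At an unadjusted p under 0.05 in limma, 1 was higher and 1 lower, where 4.05% of all genes had such a p. At an adjusted p under 0.05, 0 passed. Groups without overlap were found for 1 gene above WT and 1 below, where 9.62% of all genes had them. Xdh, which as xanthine oxidase makes superoxide and in the mammary epithelium also coats milk fat globules, had 11.16, 10.04 and 9.80 in WT and 8.80, 8.35 and 7.91 in Rac1-/- mice. Its log2 difference was -1.98 (SE 0.53, adjusted p = 0.946 by limma), and the groups did not overlap. A list of lactation genes chosen by the study holds Xdh, and on which arrays it was chosen is not stated, so the direction is not given as independent evidence. Mpo, the gene of the myeloperoxidase of neutrophil granules, had 3.40, 3.92 and 4.93 in WT and 6.21, 5.61 and 5.37 in Rac1-/- mice, a log2 difference of 1.65 (SE 0.54, adjusted p = 0.946 by limma) without overlap, though from dim signals. It ran from 1.31 to 2.07 when single mice were left out, and it was 3.15 without normalization between arrays and 2.68 with arrays scaled to a common median. Elane, another gene of the same granules, had 0.18 with overlapping groups. Lpo, the peroxidase of milk, had 5.10 ± 1.33 (SD, n = 3) across WT and 4.63 ± 0.58 (SD, n = 3) across Rac1-/- glands, a log2 difference of -0.47 (SE 0.70). It was -1.23 without Nas478 and -0.043 without Nas484, and it turned to 0.29 with arrays scaled to a common median and 0.76 without normalization between arrays.

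**Figure D4:**
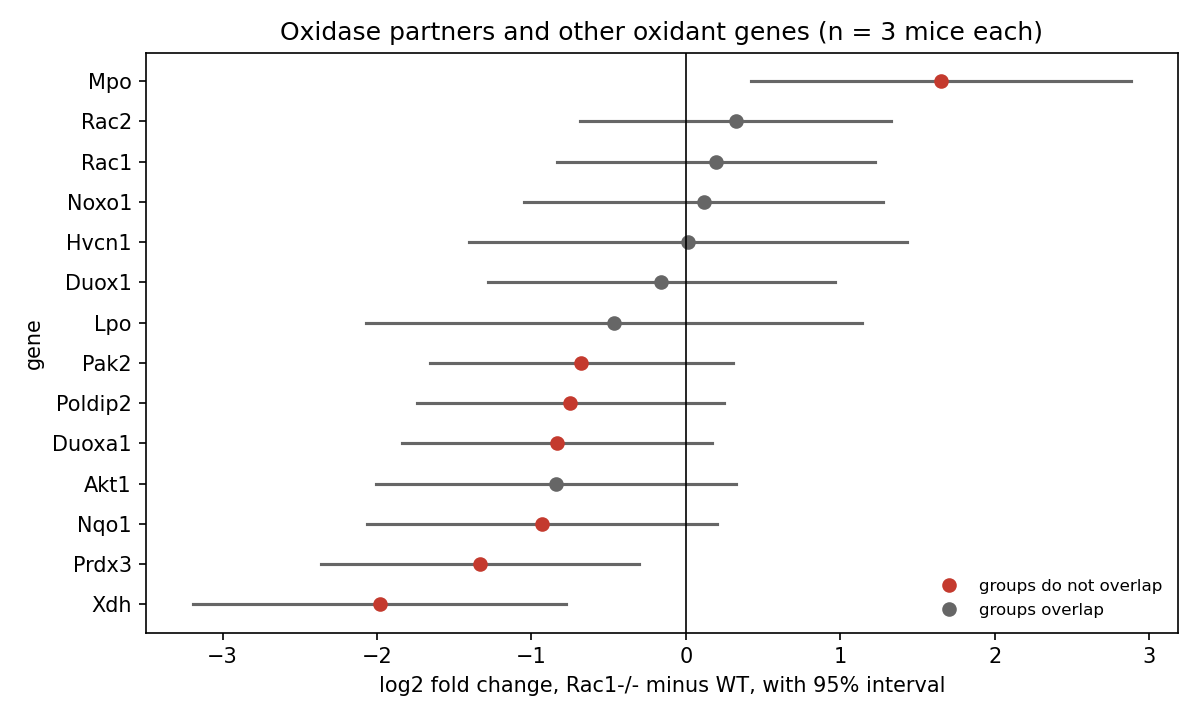
Rac1-/- minus WT log2 difference for 14 named partners of the oxidase and other oxidant genes, with n = 3 mice for each group and 95% intervals from limma. Genes whose groups do not overlap are in red, and the estimates run from -1.98 for Xdh to 1.65 for Mpo.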

How the data were processed

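Mammary RNA of 6 mice (3 WT and 3 Rac1-/-, grouped by the genotype in the labels) was amplified by the authors with the Affymetrix Sensation kit and hybridized to mouse GeneChip arrays, 1 per animal. The authors inspected the arrays with Expression Console, and the deposited values are linear intensities, 1 for each probe set. How probe signals were summarised and scaled is not stated in the sources used here. On each array the deposited intensities average 100 once the top and bottom 2% are removed, while their medians differ from 40.6 to 88.0, so they were scaled by array. Array intensities carry no read depth, and the number of arrays limits the precision. No 2 arrays held identical values (0 pairs).

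Quantile normalization between arrays was done with limma 3.58.1 under R 4.3.3, followed by a floor of 1 and log2. A single gene symbol is given for 34958 probe sets, several for 932 and none for 9211. For each gene the probe set with the highest mean was used. WT and Rac1-/- arrays were compared by limma's moderated linear model with p-values adjusted by Benjamini and Hochberg's method across 18194 genes, and further probe sets of a gene by the same model across all 45101. Exact two-sided permutation tests used the 20 splits of 6 mice. The code was tested on simulated data. Named genes are all member probe sets, fixed partners, the 2 genes of each list with the smallest p and the 3 most alike genes per member. Csn2, Wap, Elf5, the keratins, Cdh1, Epcam, Elane, Dock2 and Sod1 were named after their values were seen, as were Ms4a1, Cd79a, Cd79b, Col3a1 and Col1a1. The members, lists and settings were chosen with earlier results of these data known.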

Additional observations from a re-analysis of the deposited data

How the results depend on the processing

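The comparison was repeated under 17 alternatives, and 0 members and 0 genes in all passed an adjusted p under 0.05 in limma under any of them. The smallest adjusted p of a member was 0.611. Of 154 member values under these alternatives, 124 kept their sign and 30 did not. Dim signals limit Ncf4, Nox4 and the lower probe sets of Cybb and Ncf1. No paired analysis was possible because the labels give no replicate numbers that link mice of the groups. The causes of the changes below were not tested, and values are log2 fold changes, or medians of them for lists.

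With arrays scaled to a common median the signs turned for Cybb (-0.29), Ncf4 (-0.046), Ncf1 on 1451767_at (0.028), Rac1 (-0.82), Lpo (0.29) and the activation list (-0.33), and the list of superoxide and peroxide removal was -1.185. Without normalization between arrays they turned for Cybb on 1436779_at (0.17), Ncf1 on 1425609_at (0.43) and 1451767_at (0.50), Duox1 (0.15), Lpo (0.76) and Rac1 (-0.35), and the partner, removal and other oxidant lists were 0.47, -0.71 and 0.57. With array weights they turned for Cyba (0.021), Ncf4 (-0.46), Ncf1 on 1451767_at (0.0063), Hvcn1 (-0.20), Noxo1 (-0.083) and the partner list (-0.12). Without the arrays of Nas484 and Nas497 they turned for Cyba (0.17), Ncf4 (-0.75), Ncf1 on 1451767_at (0.015), Hvcn1 (-0.24), Noxo1 (-0.28) and the partner (-0.26) and other oxidant lists (-0.052), and the removal list was -0.10. With the actin difference as a covariate they turned for Cybb on 1436779_at (0.14), Ncf4 (-0.87), Noxo1 (-0.63) and the partner (-0.062) and other oxidant lists (-0.11), and the removal list was -0.025. With the interquartile range as a covariate they turned for Cybb on 1436779_at (0.064), Ncf1 on 1425609_at (0.14), Duox1 (0.31) and Noxo1 (-0.0073), and the partner and removal lists were 0.35 and -0.0071. When the probe sets of each gene were averaged Rac1 was -0.66, the activation list -0.27 and the partner list -0.018. Rac1 was -0.80 without probe sets that can cross-hybridize. The other oxidant list was -0.14 over genes above the median mean.

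Leaving out 1 mouse at a time gave ranges across 0 for Cyba (-0.54 to 0.24), Ncf4 (-0.43 to 0.79), Nox4 (-0.16 to 0.86, and -0.078 to 0.96 on 1419161_a_at), Ncf1 on 1425609_at (-0.24 to 0.21) and 1451767_at (-0.45 to 0.25), Rac1 (-0.00034 to 0.42), Duox1 (-0.44 to 0.14), Hvcn1 (-0.50 to 0.50), Noxo1 (-0.24 to 0.45) and the activation list (-0.15 to 0.10). The removal list ran from -0.62 to -0.19, the partner list from 0.021 to 0.22 and the other oxidant list from 0.057 to 0.24. Over all genes 737 had an unadjusted p under 0.05, with 401 to 1530 when 1 mouse was left out, 1453 with array weights, 1311 without Nas484 and Nas497, 1184 with the actin covariate and 362 over genes above the median mean.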
